A study of Homo sapiens with 6 samples.

Results

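Transcripts of 9 genes that restrain cell proliferation were followed in hTERT RPE-1 cells after a low dose of camptothecin. They were the BTG and TOB genes BTG1, BTG2, BTG3, TOB1 and TOB2, the GADD45 genes GADD45A and GADD45B, and the polo-like kinase genes PLK2 and PLK3. They were taken by gene symbol, and all 9 were found among the 13696 genes of the table. All 9 passed the filter on low values. hTERT RPE-1 is a human retinal pigment epithelial line made immortal with the telomerase subunit hTERT. The 3 untreated libraries received no drug, and the 3 pre-dose libraries came from cells given 25 nM camptothecin (CPT) for 1 h, then kept without drug for 24 h until harvest. Camptothecin traps topoisomerase 1 on DNA. All libraries came from the same line in the same medium, and the labels name no genetic change in either group, other than the hTERT both carry. The labels do not say whether replicates were separate cultures, and every test below therefore rests on library-to-library spread that may be purely technical.

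BTG and TOB proteins share an N-terminal domain that binds the deadenylase subunits CNOT7 and CNOT8 of the CCR4-NOT complex, which shortens poly(A) tails, and high levels of them slow entry into S phase. GADD45 proteins are small and acidic, lack enzyme activity and bind PCNA, CDK1 and the kinase MAP3K4, which starts p38 and JNK signalling. PLK2 and PLK3 are stress- and serum-induced relatives of the mitotic kinase PLK1. BTG2, GADD45A, PLK2 and PLK3 are textbook targets of p53, the transcription factor that DNA damage activates.

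Promoter sequences are shown for BTG2, PLK2 and PLK3, the members that the authors' deposited table calls higher, and for BTG1, the closest relative of BTG2, whose level hardly differed. They are RefSeq windows on GRCh38.p14, from 250 bases before to 50 bases after a RefSeq start site. Each is given 5′ to 3′ on the strand of the gene. The gene positions given further below come from another annotation and can start elsewhere, so window positions do not refer to them. RefSeq windows were found for 8 of the 9 genes, not for GADD45A. Capitals mark the TATA box motif TATAAA, the CCAAT box, the cAMP response half-site TGACG and the p53 half-site by its name, each searched on both strands. TGACG is part of the full element TGACGTCA, which none of the 9 windows of these 8 genes held. Positions are of the first base of a match, with the start site as 0.
BTG2, chr1:203305269-203305568, plus strand: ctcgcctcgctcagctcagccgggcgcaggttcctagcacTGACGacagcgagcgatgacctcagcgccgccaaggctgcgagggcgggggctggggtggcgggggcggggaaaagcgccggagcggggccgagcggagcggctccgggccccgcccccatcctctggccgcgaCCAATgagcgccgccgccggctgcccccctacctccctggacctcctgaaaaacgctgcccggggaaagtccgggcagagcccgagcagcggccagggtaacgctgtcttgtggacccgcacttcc
PLK2, chr5:58460037-58460336, minus strand: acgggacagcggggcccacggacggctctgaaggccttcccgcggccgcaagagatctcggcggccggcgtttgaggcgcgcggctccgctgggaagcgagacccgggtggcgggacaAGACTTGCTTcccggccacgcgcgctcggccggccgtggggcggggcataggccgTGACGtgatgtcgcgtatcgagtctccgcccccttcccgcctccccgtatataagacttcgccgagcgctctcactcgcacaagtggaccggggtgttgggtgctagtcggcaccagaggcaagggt
PLK3, chr1:44800127-44800426, plus strand: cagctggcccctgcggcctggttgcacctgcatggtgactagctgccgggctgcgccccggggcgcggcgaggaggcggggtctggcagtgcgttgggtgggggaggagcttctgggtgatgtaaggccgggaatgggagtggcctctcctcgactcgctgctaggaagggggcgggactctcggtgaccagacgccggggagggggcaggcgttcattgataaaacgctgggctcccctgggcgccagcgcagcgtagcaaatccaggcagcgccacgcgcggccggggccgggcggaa
BTG1, chr12:92145797-92146096, minus strand: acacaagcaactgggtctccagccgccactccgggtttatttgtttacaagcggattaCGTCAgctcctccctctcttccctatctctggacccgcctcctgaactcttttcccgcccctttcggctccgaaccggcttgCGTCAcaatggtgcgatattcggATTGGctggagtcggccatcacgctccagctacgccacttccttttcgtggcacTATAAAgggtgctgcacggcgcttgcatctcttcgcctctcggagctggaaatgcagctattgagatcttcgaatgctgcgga

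The BTG2 window held CCAAT at -76 and TGACG at -210. In the PLK2 window, TGACG lay at -77 and a p53 half-site at -132, and the PLK3 window had no match to any of the 4 motifs. BTG1 had TATAAA at -33 and, on the opposite strand, CCAAT at -87 and TGACG at -110 and -192. Of all 35116 RefSeq windows of this length, 11.5% held TATAAA, 34.6% CCAAT, 24.6% TGACG and 6.63% a p53 half-site. None of these 4 was common to the BTG2, PLK2 and PLK3 windows, though BTG2 and PLK2 both held TGACG. Other motifs were searched as well and are not in capitals. The GC box GGGCGG was in the BTG2, PLK2 and PLK3 windows, but also in that of BTG1 and in 45% of all windows. The E-box CACGTG (7.26% of all windows) and the serum response motif CArG, by its name (1.29%), were in none of the windows shown. Only exact matches were counted, so sites that differ from a motif by any base were missed. A match describes letters and not binding.

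Effective library totals, as implied by the lowest value of each column, ran from 26336942 to 31780392. Levels are in CPM, counts scaled to these effective totals. Over the genes analysed, CPM summed to 993376.83 in pre-dose replicate 2 and up to 1009238.5 in untreated replicate 1. The effective totals are therefore not plain read counts. Both replicate 1 libraries stood apart from the other 4 on the first principal component, which held 59.4% of the variance. With treatment in the model, 40.8% of the 13616 genes tested differed between replicate 1 and the others in limma at an adjusted p of 0.05, 3 of the 9 members among them. Of 13 pigment epithelium markers, 3 were among the genes analysed here: MITF at 44.9 to 50.6 CPM, OTX2 at 15.8 to 18.4 CPM and BEST1 at 4.14 to 5.40 CPM over the 6 libraries. RPE65, RLBP1 and TYR, which define the mature tissue, were not among them. Of 7 mesenchymal markers, 5 were measured, VIM at 8644 to 11123 CPM and, at lower levels, CDH2, COL1A1, THY1 and PDGFRB. COL1A2 and COL3A1 were not among the genes analysed. Of 4 markers of neurons and glia, 2 were measured, TUBB3 at 255 to 400 CPM and SNAP25 at 0.967 to 1.61 CPM. The summed pigment epithelium markers were 65.4 to 69.3 CPM in untreated and 66.9 to 73.5 CPM in pre-dose libraries. The blood cell marker CD68, a lysosomal protein, was at 58.2 to 65.4 CPM in untreated and 70.7 to 75.9 CPM in pre-dose libraries, and PTPRC, which defines blood cells, was not among the genes analysed here. Of 5 markers of simple epithelium, KRT19, EPCAM and CDH1 were not among them either. The 2 measured were KRT8, whose groups overlapped, and KRT18, at 431 to 461 CPM in untreated and 413 to 428 CPM in pre-dose libraries. Groups thus did not overlap for CD68 as higher (3.36% of all genes) and, by little, for KRT18 as lower (3.19%). The part of CD68 and KRT18 in the results below was not tested. In bulk RNA, a change in the share of cells that express a gene and a change per cell cannot be told apart.

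Levels were compared between genes per kilobase of annotated exon, as means over the 6 libraries. PLK2 led with 124 CPM per kilobase, above 98.1% of the genes in the table. GADD45B followed with 26.9, GADD45A with 17.5, BTG1 with 14.7, TOB2 with 12.3 and TOB1 with 11.5 CPM per kilobase. BTG3 and PLK3 had 6.73 and 6.64, and BTG2 was the lowest of the 9 with 2.22 CPM per kilobase. Among untreated libraries no neighbours in this order overlapped, with TOB2 at 12.3 to 12.6 against TOB1 at 10.3 to 11.5 and BTG3 at 6.91 to 7.68 against PLK3 at 5.74 to 6.06. Among pre-dose libraries both of these pairs overlapped, TOB2 at 11.3 to 12.7 with TOB1 at 11.3 to 12.6, and BTG3 at 5.63 to 6.82 with PLK3 at 6.05 to 8.34. There the mean of PLK3, 7.39 CPM per kilobase, was above that of BTG3, 6.25. No other neighbours overlapped in either group. BTG2 ranged most for its level, from 1.04 to 4.65 CPM per kilobase.

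**Figure D1:**
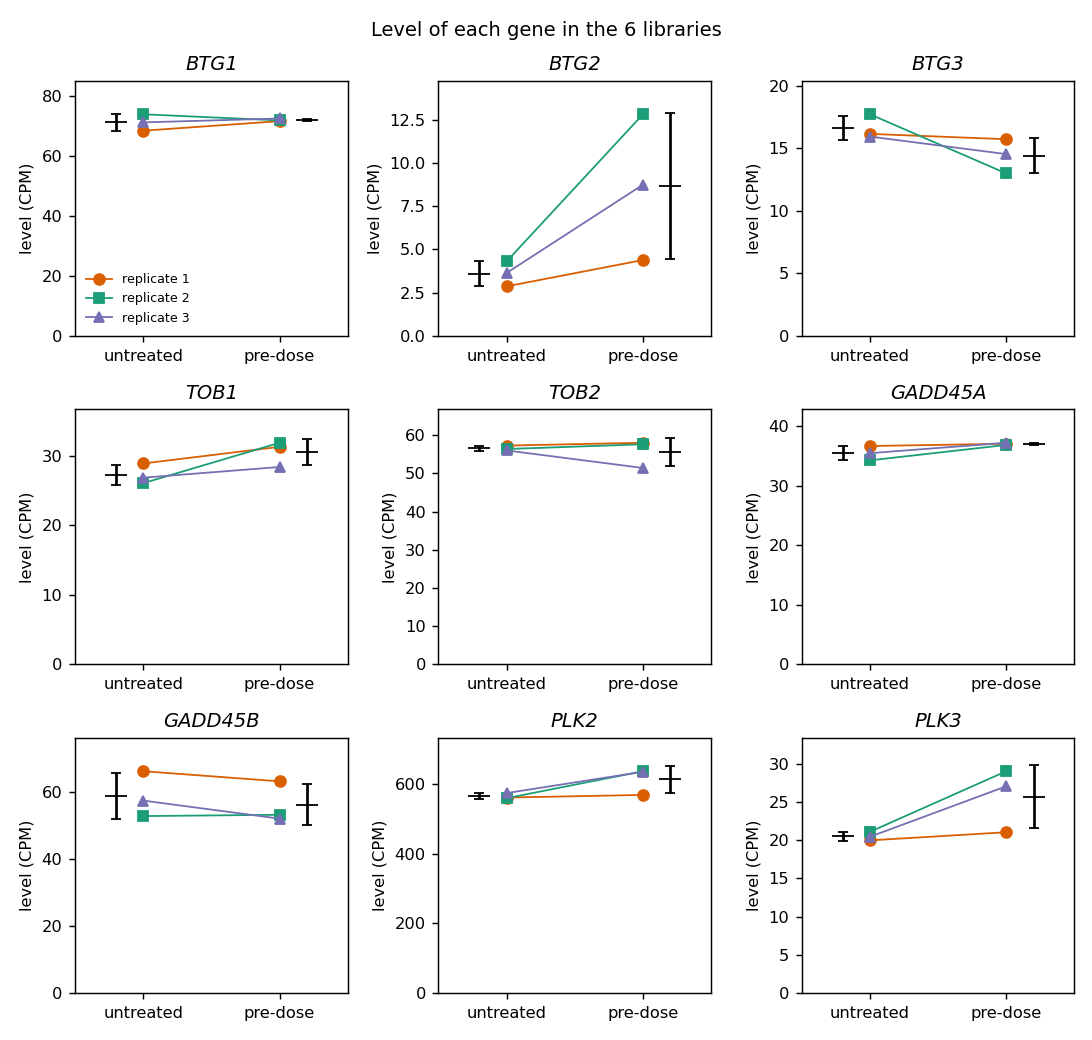
Level in CPM (y axis, from 0) of each of the 9 genes in untreated and pre-dose libraries (x axis), with lines joining libraries of the same replicate number and black bars for the mean ± SD of each group (n = 3). Relative to their untreated level, BTG2 and PLK3 were the genes with the steepest lines in replicates 2 and 3, each panel having its own y axis.

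BTG2, an early p53-induced member of the BTG family, lies on chromosome 1 from 203305491 to 203309602 (GRCh38). It stood at 2.87, 4.31 and 3.64 CPM in untreated replicates 1 to 3 and at 4.39, 12.8 and 8.74 CPM in pre-dose replicates 1 to 3. The groups did not overlap, though pre-dose replicate 1 exceeded untreated replicate 2 only slightly. The means were 3.61 ± 0.722 CPM and 8.65 ± 4.21 CPM (SD, n = 3 each), a ratio of 2.40. These values rested on 84 to 386 estimated reads per library, the fewest of the 9 genes. On the log2(CPM + 1) scale, where changes of weakly expressed genes come out too small, the difference was 0.98 with a standard error of 0.32 and a 95% interval of 0.23 to 1.73. Only 0.022% of the genes tested had a larger difference in size. It did not pass in limma (adjusted p = 1.00), and the difference was 0.48, 1.38 and 1.07 in the replicate 1, 2 and 3 pairs. The authors' deposited table gave 1.26 on the log2 scale with limits of 0.78 and 1.74 and an adjusted p of 0.0327. In limma on replicates 2 and 3 alone, 2 libraries per group, the difference was 1.22 with an adjusted p of 0.00149. That fit leaves out the replicate 1 pair, whose difference was the smallest.

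BTG1, a BTG2 relative with the same deadenylase-binding domain, lies on chromosome 12 from 92140278 to 92145897. It had 68.3, 73.8 and 71.1 CPM in untreated and 71.5, 71.7 and 72.4 CPM in pre-dose replicates 1 to 3. The pre-dose values lay within the range of the untreated ones. The difference was 0.02, with a 95% interval of -0.11 to 0.15 in limma (adjusted p = 1.00), and 83.8% of genes differed more. BTG1 and BTG2 thus had intervals that did not overlap, although the difference between the genes was not tested.

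BTG3, on chromosome 21 from 17593653 to 17612947 and known to bind the cell cycle factor E2F1, had the difference farthest below 0 among the 9, and it did not pass the test. It had 16.2, 17.7 and 15.9 CPM in untreated and 15.7, 13.0 and 14.5 CPM in pre-dose replicates 1 to 3, and the groups did not overlap. The difference was -0.19, with an interval of -0.41 to 0.02 in limma (adjusted p = 1.00), and -0.04, -0.42 and -0.12 in the 3 pairs. The replicate 2 pair held most of it. BTG3 was not called in the authors' deposited table either (log2 difference -0.21, adjusted p = 0.112).

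TOB1, an antiproliferative protein that also dampens SMAD signalling, lies on chromosome 17 from 50862223 to 50867978. It had 28.9, 26.1 and 26.9 CPM in untreated and 31.3, 31.9 and 28.4 CPM in pre-dose replicates 1 to 3. Pre-dose replicate 3 lay below untreated replicate 1, so the groups overlapped, but each pre-dose library was above the untreated library of its number. The difference was 0.16, with an interval of -0.02 to 0.33 in limma (adjusted p = 1.00), and the authors' deposited table gave 0.13 with an adjusted p of 0.208. TOB2, its paralog on chromosome 22 from 41433492 to 41447023, had 57.3, 56.4 and 56.0 CPM in untreated and 58.0, 57.6 and 51.4 CPM in pre-dose replicates 1 to 3. Only pre-dose replicate 3 was outside a narrow band. Its difference was -0.02, with an interval of -0.18 to 0.13 in limma.

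The annotation places other transcripts across some of these exons, and the strand setting of the counting is not given in the sources used here. BTG3 shares 280 exon bases with BTG3-AS1 and TOB1 shares 281 with TOB1-AS1, both on the opposite strand. BTG1 shares 503 with LINC01619 on its own strand and 325 with AC025164.1 on the other. None of these 4 was among the genes analysed here, so their share in the BTG1, BTG3 and TOB1 levels was not tested. PLK3 shares 78 exon bases with TCTEX1D4 on the opposite strand, whose mean was 1.12 CPM.

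GADD45A, a PCNA- and CDK1-binding protein and one of the first p53 targets described, lies on chromosome 1 from 67685061 to 67688338. It had 36.6, 34.2 and 35.4 CPM in untreated and 37.02, 36.8 and 37.2 CPM in pre-dose replicates 1 to 3. All pre-dose values were above all untreated values, by little. The means were 35.4 ± 1.20 CPM and 37.0 ± 0.184 CPM (SD, n = 3 each), a ratio of 1.04. In limma the difference was 0.06 with a 95% interval of -0.08 to 0.20 (adjusted p = 1.00), and the authors' deposited table gave 0.08 with an adjusted p of 0.255. The upper end of the limma interval lay below the lower end for BTG2, 0.23, although the difference between these p53 targets was not tested.

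GADD45B, its relative induced by TGF-beta and NF-kB signalling, lies on chromosome 19 from 2476122 to 2478259. It had 66.3, 52.9 and 57.5 CPM in untreated and 63.3, 53.3 and 52.1 CPM in pre-dose replicates 1 to 3. Both replicate 1 libraries were the highest of their group, and GADD45B was higher in replicate 1 than in the others by 0.26 (adjusted p = 0.00166 in limma). The treatment difference was -0.07, with an interval of -0.32 to 0.19 in limma. The direction differed among the pairs, at -0.07, 0.01 and -0.14.

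PLK2, a kinase of centriole duplication and stress responses, lies on chromosome 5 from 58453982 to 58460260 and was the most abundant of the 9. It had 561, 559.7 and 574 CPM in untreated and 569, 637 and 635 CPM in pre-dose replicates 1 to 3. Pre-dose replicates 2 and 3 lay above every untreated library, and pre-dose replicate 1 lay among them. The means were 565 ± 8.02 CPM and 614 ± 38.9 CPM (SD, n = 3 each), a ratio of 1.09. The difference was 0.12, with an interval of -0.03 to 0.26 in limma (adjusted p = 1.00). The authors' deposited table called PLK2 higher, by 0.15 on the log2 scale (adjusted p = 0.0430). Limma on replicates 2 and 3 alone, 2 libraries per group, gave 0.17 with an adjusted p of 0.0118. The values rested on 14739 to 19217 estimated reads per library.

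PLK3, a kinase that responds to stress and DNA damage, lies on chromosome 1 from 44800225 to 44805990. It had 20.0, 21.1 and 20.4 CPM in untreated and 21.03, 29.02 and 27.1 CPM in pre-dose replicates 1 to 3. As with PLK2, pre-dose replicate 1 lay among the untreated libraries and the other pre-dose libraries lay above them. The means were 20.5 ± 0.563 CPM and 25.7 ± 4.16 CPM (SD, n = 3 each), a ratio of 1.25. The difference was 0.30 with a standard error of 0.12 and a 95% interval of 0.02 to 0.58, and did not pass in limma (adjusted p = 1.00). The pairs differed by 0.07, 0.44 and 0.39. The authors' deposited table called PLK3 higher, by 0.39 with limits of 0.25 and 0.53 (adjusted p = 0.0295). Limma on replicates 2 and 3 alone, 2 libraries per group, gave 0.42 with an adjusted p of 0.00383.

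**Figure D2:**
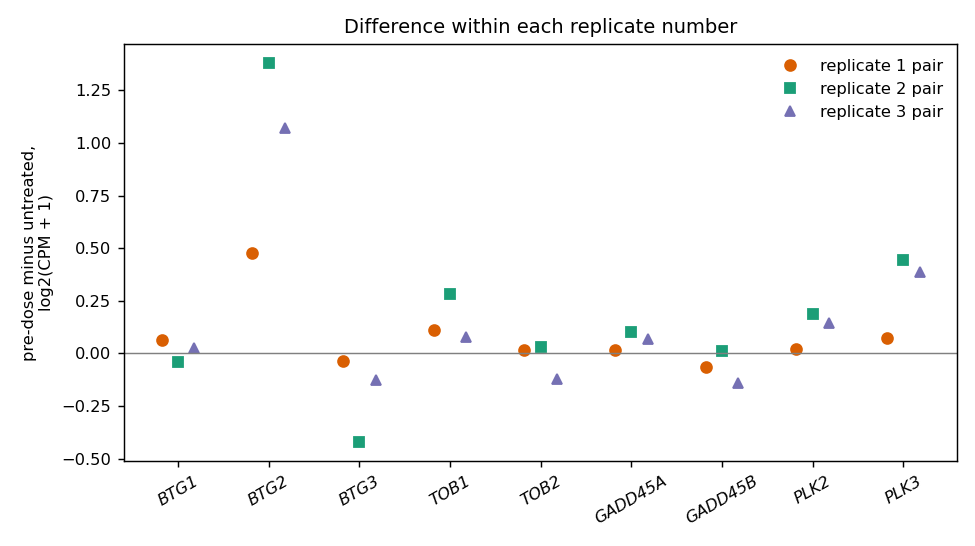
Difference between the pre-dose and the untreated library of the same replicate number in log2(CPM + 1) (y axis) for each of the 9 genes (x axis), 1 symbol per replicate number. BTG2, TOB1, GADD45A, PLK2 and PLK3 were above 0 in all 3 pairs and BTG3 below 0 in all 3, with the replicate 1 pair the smallest for BTG2, GADD45A, PLK2 and PLK3.

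The counts of calls over the 9 genes differed between fits, and the cause was not tested. None passed in limma over all 6 libraries (0 of 9, as 0% of all genes did), and 2 of 9, BTG2 and PLK3, had an unadjusted p under 0.05, both as higher, against 1.25% of all genes in that direction. With the replicate number as a block, again 0 of 9 passed (0% of all genes). At an unadjusted p under 0.05 the block gave 5 of 9, BTG2, TOB1, PLK2 and PLK3 as higher (5.2% of all genes) and BTG3 as lower (5.4% of all genes). For BTG2 the block gave a p of 2.0e-04 (adjusted p = 0.161 in limma). The authors' deposited table had 3 of 9 past an adjusted p of 0.05, all higher, against 1.61% of its genes. Limma on replicates 2 and 3 alone also called 3 higher, BTG2, PLK2 and PLK3, against 2.89% of all genes. Both of these rest on the same libraries and are not independent of each other. Leaving out replicate 1 removed the pair with the smallest difference for BTG2, PLK2 and PLK3.

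Groups did not overlap for BTG2 and GADD45A as higher (3.36% of all genes) and for BTG3 as lower (3.19%). All 3 pairs were higher for 5 of 9 genes (15.6% of all genes) and lower for 1 (16.3%). The median difference over the 9 genes was 0.06, against -0.00 over all genes, and it was 0.02, 0.10 and 0.07 in the replicate 1, 2 and 3 pairs. Voom with library quality weights, which gave the replicate 1 libraries weights of 0.230 and 0.199 against 1.26 to 2.86 for the others, called 2 of the 9, BTG2 (adjusted p = 0.0446) and PLK3 (adjusted p = 0.0429), both higher, against 0.485% of all genes. PLK2 missed the threshold there (adjusted p = 0.0597).

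**Figure D3:**
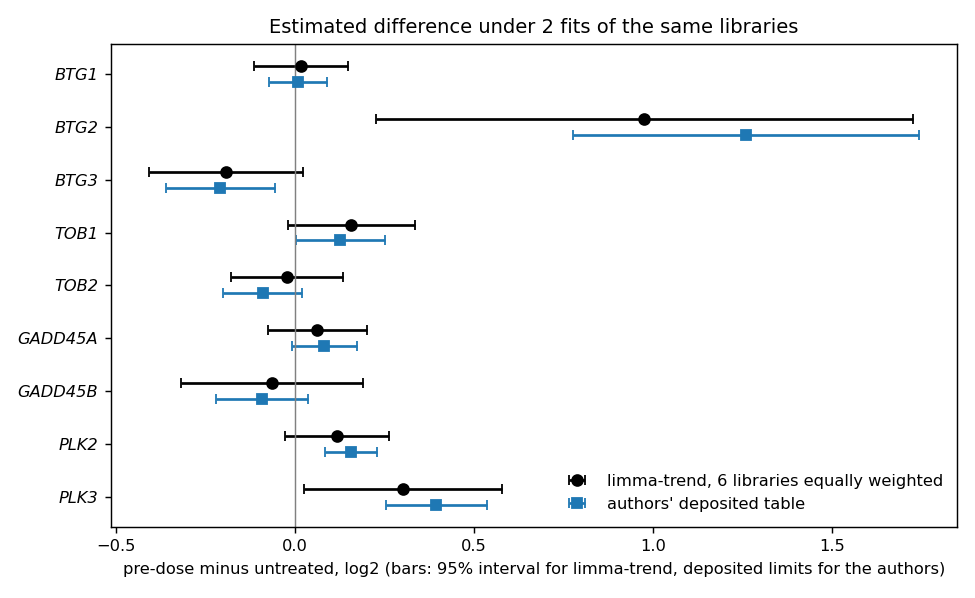
Pre-dose minus untreated difference on a log2 scale (x axis) for each gene (y axis), from limma-trend on log2(CPM + 1) with its 95% interval (black circles) and from the authors' deposited table with its deposited limits (blue squares). The intervals of the 2 sources overlap for all 9 genes, and the deposited ones are narrower.

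Other textbook p53 targets had 25 measured genes with a median difference of 0.36, against -0.00 over all genes. The list was written with earlier results of these data known, so its counts and median are a description and not independent evidence. In limma over 6 libraries 0 of the 25 passed (0% of all genes), and 12 had an unadjusted p under 0.05, all with higher levels (1.25% of all genes in that direction). All 3 pairs were higher for 23 (15.6% of all genes) and lower for 0 (16.3%). The exceptions were TP53I3, with pair differences of -0.03, 0.11 and -0.03, and PPM1D, with -0.11, 0.32 and 0.21. Their medians were 0.19, 0.56 and 0.38 in the replicate 1, 2 and 3 pairs, smallest in replicate 1 as for BTG2. The authors' deposited table called 14, all higher, against 1.61% of its genes: CYFIP2, PHLDA3, FDXR, AEN, SPATA18, BAX, DDB2, MDM2, BBC3, CDKN1A, XPC, SESN2, TNFRSF10B and ZMAT3. Limma on replicates 2 and 3 alone called 19 of the 25 higher (2.89% of all genes) and 0 lower (3.47%). Voom with library quality weights called 12, all higher (0.485% of all genes). GDF15, also on the list, was not analysed here. BBC3, which encodes the BH3-only protein PUMA, had means of 3.89 and 7.72 CPM, a level close to that of BTG2. TP53I3 was at the low end of the list, with a difference of 0.02, close to the 0.06 of GADD45A. PLK2 and PLK3, with 0.12 and 0.30, were below the list's median and BTG2, with 0.98, above it.

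Of 16 genes of the CCR4-NOT and poly(A)-binding machinery, 0 passed in limma (0% of all genes). None had an unadjusted p under 0.05 (0 of 16, against 1.25% of all genes as higher and 0.808% as lower). The authors' deposited table called 0, against 1.61% of its genes as higher and 1.45% as lower, so these counts are near those over all genes. Their differences ran from -0.07 to 0.06 with a median of -0.04, against -0.00 over all genes. The smallest p values belonged to CNOT6L, a catalytic deadenylase (-0.07), TNKS1BP1, a scaffold of the complex (-0.07), and CNOT7, the deadenylase that BTG and TOB proteins bind (-0.05). CNOT7 had 67.9 ± 0.253 CPM in untreated and 65.6 ± 1.77 CPM in pre-dose libraries (SD, n = 3 each).

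The p38 and JNK cascade, which GADD45 proteins engage through MAP3K4, had 12 measured genes with a median difference of 0.01 and a range of -0.11 to 0.12. Again 0 passed in limma (0% of all genes), 0 had an unadjusted p under 0.05 (1.25% of all genes higher, 0.808% lower) and 0 were called in the authors' deposited table (1.61% higher, 1.45% lower), shares near those over all genes. MAP3K4 itself had 42.5 ± 1.81 and 39.3 ± 1.35 CPM (SD, n = 3 each), a difference of -0.11 that was not past the threshold. MAP2K3, a p38 kinase kinase, differed by 0.12 and passed as higher in replicates 2 and 3 alone (adjusted p = 0.0209 in limma, 2.89% of all genes), and MAP2K7, a JNK kinase kinase, by -0.04.

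The family relatives PLK1 and PLK4 had differences below 0 over 6 libraries, -0.26 and -0.18, and neither passed in limma. PLK1, the mitotic kinase, had 192 ± 30.1 and 172 ± 86.0 CPM (SD, n = 3 each), with pair differences of 0.25, -0.61 and -0.42. In replicates 2 and 3 alone it passed as lower (adjusted p = 0.00187 in limma, 3.47% of all genes). PLK4, the centriole duplication kinase, had 21.7 ± 0.488 and 19.3 ± 3.03 CPM (SD, n = 3 each). Both were higher in the replicate 1 pair and lower in the others. BTG4, GADD45G and PLK5 were not analysed here.

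Other binding partners numbered 13, with 0 past the threshold in limma (0% of all genes). At an unadjusted p under 0.05 there was 1, CDKN1A as higher (1.25% of all genes). The authors' deposited table had CDKN1A, the CDK inhibitor p21 that also binds GADD45 proteins, as higher (1.61% of its genes). It had HOXB9, a homeobox factor that BTG proteins bind, as lower (1.45% of its genes). HOXB9 had 3.31 ± 0.353 and 2.46 ± 0.609 CPM (SD, n = 3 each; adjusted p = 0.0485 in the authors' deposited table). CDK1, the mitotic kinase that GADD45 proteins bind, differed by 0.22, -0.50 and -0.25 in the 3 pairs, and CCNB1, its cyclin, by 0.17, -0.50 and -0.41. In limma on replicates 2 and 3 alone, 2 of the 13 passed as lower (3.47% of all genes). These were CDK1 by -0.37 (adjusted p = 0.00746) and CCNB1 by -0.46 (adjusted p = 3.99e-04). CDKN1A passed there as higher by 1.17 (adjusted p = 2.27e-05, 2.89% of all genes). In the replicate 1 pair CDK1 and CCNB1 lay on the other side of 0.

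Immediate early genes, the class to which BTG2, PLK2 and PLK3 also belong after serum, had 18 measured members with a median difference of -0.06. In limma 0 passed (0% of all genes) and 2 had an unadjusted p under 0.05, JUND and KLF6, both lower (0.808% of all genes in that direction). JUND, an AP-1 subunit, had 119 ± 2.75 and 106 ± 6.40 CPM and KLF6, a zinc finger factor, 92.6 ± 5.91 and 80.3 ± 6.39 CPM (SD, n = 3 each). IER5, which is also a damage-responsive gene, was the 1 of 18 called in the authors' deposited table. It was higher there by 0.30 (adjusted p = 0.0295), against 1.61% of all genes in that direction. In limma on replicates 2 and 3 alone, 1 of 18 passed as higher, IER5 (2.89% of all genes). As lower, 3 passed there, FOSL1, JUNB and KLF6 (3.47%). FOS, EGR2, EGR3 and DUSP2, also on the list, were not analysed here. All 3 pairs were lower for 7 of the 18 genes (16.3% of all genes) and higher for 2 (15.6%).

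**Figure D4:**
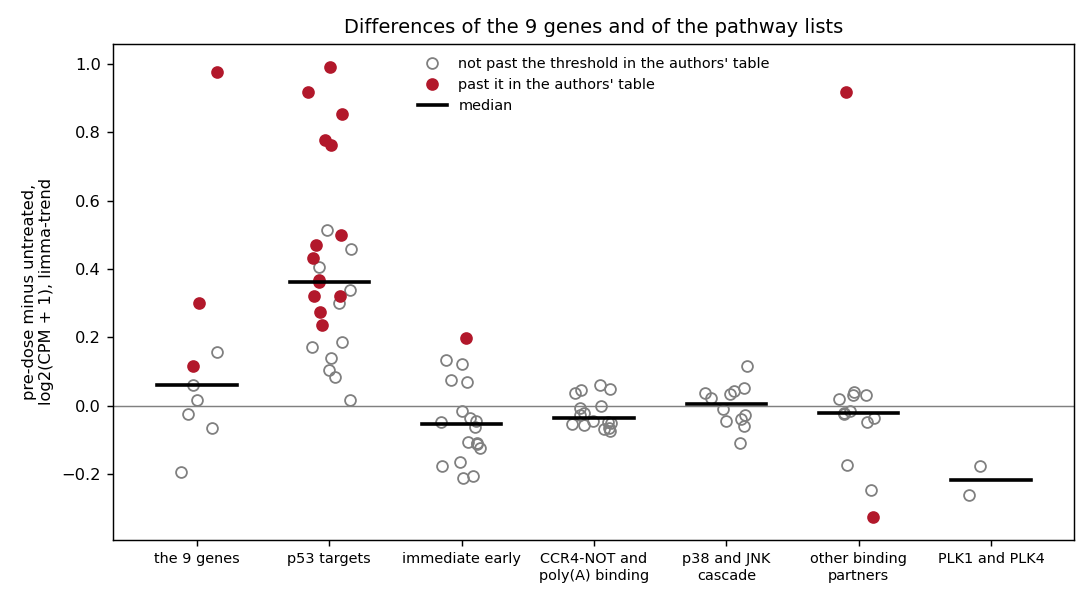
Pre-dose minus untreated difference in log2(CPM + 1) from limma-trend (y axis) for the 9 genes and for each pathway list (x axis), 1 circle per gene, filled where the authors' deposited table has an adjusted p under 0.05. Black lines are medians, 0.06 for the 9 genes and 0.36 for p53 targets, with the other lists between -0.22 and 0.01.

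The genes whose profiles over the 6 libraries were closest to a member were found by the root mean square (RMS) difference of log2(CPM + 1), each gene centred on its own mean. For BTG2 they were CDKN1A (0.12), BBC3 (0.13) and PTCHD4 (0.19), set against 0.64 for the spread of BTG2 around its own mean. Since this distance was taken over the same libraries, likeness of the treatment differences follows from the choice and is given as a description. CDKN1A had pair differences of 0.42, 1.32 and 1.02. For PLK3 they were GOLGA6L5P, RPS27L and CES2, at RMS differences of 0.04 each against a spread of 0.20. RPS27L and CES2 were called higher in the authors' deposited table (adjusted p = 0.0254 and 0.0327). For BTG3, the third gene by unadjusted p, they were MMS22L (0.02), ABCE1 (0.03) and TBX2-AS1 (0.04), against a spread of 0.13. MMS22L, a replication fork repair factor, had pair differences of -0.01, -0.41 and -0.19.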

How the data were processed

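Libraries of poly-A selected RNA were read from both ends for 150 bases, per the labels' protocols. The authors deposited 1 table of 13773 rows, in which 77 repeated a gene identifier and were dropped. Its expression values are deposited on a log2 scale in CPM. Read from the lowest value of each column, effective totals were estimated at 26336942 to 31780392 per library. At these totals, 3 counts equal 0.0944 to 0.114 CPM (counting error only). Per the submitters' processing notes, bcl2fastq, DRAGEN, edgeR, limma and the build hg38 were used, with no versions or roles given. The table also holds the authors' deposited log2 fold changes with limits, scores and p-values. Their sign, untreated minus pre-dose by the sample columns, was turned here. The authors' model is not given in the sources used here.

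Differences were fitted with limma-trend on log2(CPM + 1) (limma 3.58.1, R 4.3.3) for the 13616 genes averaging 1 CPM or more over all libraries, two-sided, with Benjamini-Hochberg adjustment over all of them and a threshold of 0.05. The fit was tested on simulated data with independent noise, its spread taken from replicates 2 and 3. The replicate 1 split was not simulated, so that test cannot show how the fit handles it. Members and lists were chosen with earlier results of these data known. All 9 members are named, and from each list the genes past the threshold here or in the authors' deposited table, or else the 3 with the smallest p. Profile neighbours are the 3 nearest genes of the 3 members with the smallest p. Gene positions and exon lengths came from GENCODE release 29 on GRCh38. Figures used matplotlib 3.10.9.

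Replicate numbers were taken to pair libraries, which the labels do not state. Deviations of same-numbered libraries from their group means correlated at 0.66, 0.45 and 0.18 across genes. Untreated replicate 3 correlated with pre-dose replicate 2 at 0.51, above the 0.45 of the replicate 2 pair. Untreated replicate 2 correlated with pre-dose replicate 3 at 0.28, above the 0.18 of the replicate 3 pair. Deviations within a group sum to 0 and replicate 1 stood apart, so these values cannot decide how replicates 2 and 3 pair. Their pairing is an assumption on which the pair differences rest. The alternatives were a replicate block, 2 other pseudocounts, no filter, library weights (arrayWeights, gene by gene), voom with quality weights, equal medians, replicates 2 and 3 alone and each library left out.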

Additional observations from a re-analysis of the deposited data

How the results depend on the processing

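Over 15 alternatives, the differences of BTG2 (0.67 to 1.34), PLK3 (0.21 to 0.43), PLK2 (0.09 to 0.17), TOB1 (0.13 to 0.21), GADD45A (0.04 to 0.09) and BTG3 (-0.27 to -0.13) kept their sign. BTG1 turned to -0.000135 with library weights from arrayWeights, to -0.0071 in replicates 2 and 3 alone, with or without the replicate block, and to -0.0108 without untreated replicate 1 (without single libraries, -0.0108 to 0.0439). GADD45B turned to 0.0217 without untreated replicate 1 (range without single libraries -0.15 to 0.0217). TOB2 turned to 0.0313 without pre-dose replicate 3 (range -0.0542 to 0.0313). None of the 3 passed in any of these fits, and the cause was not tested. The 0 genes, 0 members and 0 list genes called over 6 libraries became 189, 2 and 14 with arrayWeights and 108, 2 and 13 with voom and quality weights. In replicates 2 and 3 alone they became 866, 3 and 27, and 1227, 3 and 30 with the replicate block. Over all 6 libraries, the fit with the replicate block called 0 of each. Leaving out any 1 library also gave 0. Depth limits BTG2 most, with 84 estimated reads in its lowest library.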
